A study of Mus musculus with 24 samples.

Results

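Cells take up glucose and break it down to pyruvate by glycolysis, and the pyruvate is then either reduced to lactate or passed to mitochondria. The 10 genes described here lie along that route: the glucose transporters Slc2a1 and Slc2a3, the hexokinases Hk1 and Hk2, the phosphofructokinases Pfkl and Pfkp, the aldolase Aldoa, the pyruvate kinase Pkm, the lactate dehydrogenase Ldha and the kinase Pdk1. They were chosen by name, with no measured value in the rule but with earlier results of these data known. Each was found in a table of raw read counts of 35591 rows (35540 gene names). Aldoa had 2 rows, so the 10 genes made up 11 rows.

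The table holds 24 poly(A) RNA-seq libraries of mouse embryonic stem cells (mESCs) that were differentiated to neuromesodermal progenitors (NMPs), the cells that give rise to the spinal cord and the mesoderm of the trunk. Of 6 male lines, 3 were Smchd1[fl/+], counted as wild type (wt), and 3 were Smchd1[del/+], heterozygous for a deletion (het). Each line was sampled on days 0, 2, 2.5 and 3, which gave 8 groups of 3 lines. The study used these lines to ask whether a lower dose of the chromatin protein SMCHD1 in the embryo, with the oocyte's own supply intact, changed gene expression during this differentiation.

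The lines were derived from blastocysts of Castaneus mothers that were Smchd1 wild type and C57BL/6 fathers that were Smchd1 del/fl and carried MMTV-Cre. The wt lines therefore held a floxed paternal allele and the het lines a deleted one, the maternal allele was intact in both, and a line of either genotype may carry the Cre transgene. Each line came from 1 blastocyst and is the replicate here, sampled once on each of the 4 days. At day 0 the cells were in DMEM with serum and LIF, after culture in 2i + LIF. That earlier medium itself holds the Wnt activator CHIR99021 and was replaced in steps before day 0. They then moved to serum-free N2B27 medium with bFGF, and on day 2 CHIR99021 was added, so that day 2.5 and day 3 cells had been exposed to it again. Cells for day 0 were also seeded more densely than those for the later days. Medium, density and day therefore cannot be told apart in any comparison across days. In 2i + LIF the lines were kept at an oxygen level below that of air. The oxygen level during differentiation is not given in the sources used here, so whether it changed with day is unknown.

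As background, glucose enters most embryonic cells through the facilitative transporters GLUT1 (Slc2a1) and GLUT3 (Slc2a3). Hexokinase traps it as glucose 6-phosphate, phosphofructokinase commits it to glycolysis, aldolase splits the 6-carbon sugar, and pyruvate kinase and lactate dehydrogenase catalyse the last steps. PDK1 phosphorylates and inhibits pyruvate dehydrogenase, the enzyme that passes pyruvate to the citrate cycle. Naive mESCs use both glycolysis and mitochondrial respiration, and cells of the early post-implantation type rely more on glycolysis. Several of these genes are textbook targets of the hypoxia-inducible factor HIF1 and of MYC.

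HIF1 binds the core motifs ACGTG and GCGTG, and MYC binds the E-box CACGTG, which holds ACGTG on both of its strands. RefSeq starts (GRCm38.p6) were available for 9 of the 10 genes, all but Slc2a3, with 15 start sites in all, and the 250 bases before each start were searched on both strands. ACGTG or GCGTG occurred in 11 of the 15 windows, against 38.6% of the 32851 windows of all genes (ACGTG 16.6%, GCGTG 28.2%). Windows 2 and 3 of Aldoa overlap and share a single site, which therefore counts in 2 of the 11. Each of the 9 genes had a match in at least 1 window. Some genes have 2 or 3 windows, so the share per window of all genes is no measure for that count. CACGTG occurred in 1 window, that of Ldha, against 6.02% of all windows. A match is a stretch of letters and not evidence of binding. The most upstream window is shown for 6 genes that span the ways in which the 10 moved below. Slc2a1, Pfkl, Ldha and Pdk1 are among those higher after day 0, Pfkp and Hk2 among those lower by day 3. The second window of Ldha, with 1 GCGTG, and that of Pdk1, with no match, are left out. Each window shown is written 5′ to 3′ on the gene's own strand with the motifs, or their reverse complements, in capitals.
Slc2a1, chr4:119108495-119108744, plus strand, with 1 ACGTG and 1 GCGTG: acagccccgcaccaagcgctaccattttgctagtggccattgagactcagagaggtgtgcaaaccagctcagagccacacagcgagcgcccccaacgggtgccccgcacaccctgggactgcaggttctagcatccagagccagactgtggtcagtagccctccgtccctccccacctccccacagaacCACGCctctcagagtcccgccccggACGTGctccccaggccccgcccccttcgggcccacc
Hk2, chr6:82774455-82774704, minus strand, with 2 ACGTG: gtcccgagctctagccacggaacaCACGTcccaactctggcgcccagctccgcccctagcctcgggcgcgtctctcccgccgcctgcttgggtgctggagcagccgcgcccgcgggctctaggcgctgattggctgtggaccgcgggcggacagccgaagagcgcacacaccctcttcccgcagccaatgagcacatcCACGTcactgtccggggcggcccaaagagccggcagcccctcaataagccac
Pfkl, chr10:78009808-78010057, minus strand, with 1 GCGTG: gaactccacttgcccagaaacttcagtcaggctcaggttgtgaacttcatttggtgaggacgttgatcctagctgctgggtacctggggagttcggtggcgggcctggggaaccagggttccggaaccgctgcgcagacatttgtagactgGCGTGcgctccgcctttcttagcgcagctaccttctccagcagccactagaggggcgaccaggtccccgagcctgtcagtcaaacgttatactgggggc
Pfkp, chr13:6648772-6649021, minus strand, with 3 GCGTG: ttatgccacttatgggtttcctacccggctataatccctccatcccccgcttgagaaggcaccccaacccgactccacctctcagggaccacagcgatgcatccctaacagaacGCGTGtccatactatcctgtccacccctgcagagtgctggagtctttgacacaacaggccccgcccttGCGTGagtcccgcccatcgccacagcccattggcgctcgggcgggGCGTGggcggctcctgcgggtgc
Ldha, chr7:46845554-46845803, plus strand, with 2 CACGTG, each counted as 2 of its 5 ACGTG: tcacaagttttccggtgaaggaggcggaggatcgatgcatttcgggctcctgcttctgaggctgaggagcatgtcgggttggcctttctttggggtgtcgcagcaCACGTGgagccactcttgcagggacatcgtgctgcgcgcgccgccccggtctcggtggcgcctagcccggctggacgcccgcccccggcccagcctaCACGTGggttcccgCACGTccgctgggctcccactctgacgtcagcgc
Pdk1, chr2:71872974-71873223, plus strand, with 1 GCGTG: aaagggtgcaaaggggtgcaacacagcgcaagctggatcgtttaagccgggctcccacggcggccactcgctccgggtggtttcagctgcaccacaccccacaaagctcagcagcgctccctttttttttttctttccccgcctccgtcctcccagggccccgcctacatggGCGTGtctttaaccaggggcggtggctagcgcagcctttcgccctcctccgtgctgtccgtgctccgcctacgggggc
Each of the 9 genes has a match, so having one cannot set genes that rose apart from genes that fell.

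Libraries held 7.10 to 20.8 M (mega) counts with a median of 17.9 M, and the shallowest was wt day 2.5 line 2. The 10 genes were far above the limit of detection, with 186 to 96075 counts per library, apart from the second row of Aldoa (6 to 44 counts). Levels are given as CPM, counts per 1000000 after scaling by TMM (the trimmed mean of M-values, which corrects for library composition), for lines 1, 2 and 3 in that order, and as mean ± SD over n = 3 lines. The labels were checked first on the deleted gene: Smchd1 was at 143 ± 10.3 CPM in wt and 95.2 ± 6.15 in het on day 0, 200 ± 15.8 and 120 ± 3.75 on day 2, 136 ± 16.0 and 90.0 ± 2.99 on day 2.5, and 193 ± 23.4 and 106 ± 1.95 on day 3. Markers of naive pluripotency fell as a list between days 0 and 2, with 10 of 10 lower in each genotype, and by day 3 all 9 markers of caudal epiblast and NMPs were above day 0 in both genotypes, so these lists moved as the labels say. Lists of formative epiblast and neural markers were also drawn up and are not described here. At an adjusted p under 0.05, 21.9% of all genes in wt and 28.1% in het were lower on day 2 than on day 0. Between days 0 and 3, 27% in wt and 32.7% in het were higher. Markers of endoderm, another cell type such cultures can hold, rose as well, and are given below where they touch a result.

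Steps between days were compared within each genotype by edgeR's quasi-likelihood test across all genes. A gene is said to rise or fall where its adjusted p (Benjamini-Hochberg over all genes tested) was under 0.05, and changes are given as log2 fold change ± standard error of the fit. Consecutive steps share libraries (those of day 2 enter both the step before and the step after it), so a high day 2 value raises one change and lowers the next. These are bulk libraries, in which fewer cells of a type and less RNA per cell cannot be told apart.

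Taken as one sum, the 11 rows were lowest on day 0 and, by the group medians, highest on day 2. The summed level had a lowest, median and highest value of 10691, 10732 and 10972 CPM in wt and 9415, 9904 and 10449 CPM in het on day 0. On day 2 it was 14635, 16502 and 16663 CPM in wt and 16811, 17142 and 17484 CPM in het, above every day 0 library. It was 11511, 12313 and 13910 CPM in wt and 11256, 11450 and 12335 CPM in het on day 2.5, and 13438, 14649 and 15241 CPM in wt and 14022, 15215 and 16339 CPM in het on day 3. Day 2.5 lay below day 2 without overlap, and days 2.5 and 3 overlapped in wt but not in het. Days 2 and 3 likewise overlapped in wt but not in het. These genes made up 1.08% ± 0.0152 of scaled counts in wt and 0.992% ± 0.0517 in het on day 0 and 1.59% ± 0.113 and 1.71% ± 0.0337 on day 2.

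**Figure D1:**
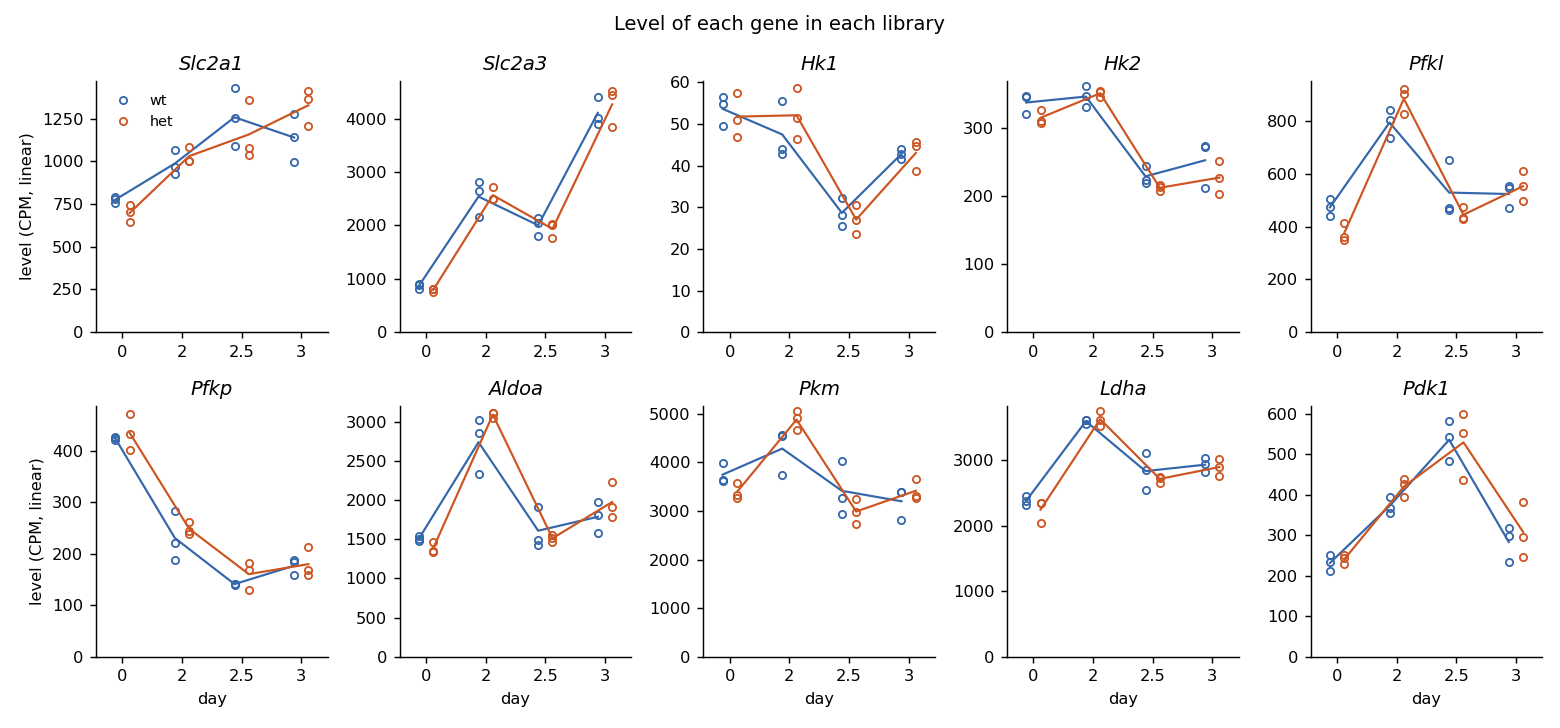
Level of each of the 10 genes in each library (y axis, CPM on a linear scale from 0; x axis, day), with open points for the 3 lines of wt and of het and lines through the group means. Slc2a3 stepped up on day 2 and again on day 3, Pdk1 was highest on day 2.5, Pfkp fell from day 0, and Aldoa and Pfkl peaked on day 2.

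Between day 0 and day 2, 6 of the 10 genes rose and 1 fell in wt, and 8 rose and 1 fell in het. Of all genes tested, 22.4% rose and 21.9% fell in wt, and 28% rose and 28.1% fell in het. The 6 that rose in both genotypes were Slc2a1, Slc2a3, Pfkl, Aldoa, Ldha and Pdk1, the 1 that fell in both was Pfkp, and Hk1 passed in neither. The median change over the 10 genes was 0.48 in wt and 0.64 in het on the log2 scale, against 0.02 and 0.01 over all genes. In 7 of the 10 genes in wt and 9 in het the day 0 and day 2 libraries did not overlap, against 54.7% and 63.4% of all genes tested.

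Between day 2 and day 2.5, the first interval of the differentiation with the Wnt activator added, 2 genes rose and 7 fell in wt, and 1 rose and 8 fell in het. The share of all genes that rose was 14.6% in wt and 21.8% in het, and the share that fell was 14.5% and 22.9%. The 7 that fell in both genotypes were Slc2a3, Hk1, Hk2, Pfkl, Pfkp, Aldoa and Ldha, and Pdk1 rose in both. The median change was -0.45 in wt and -0.67 in het, against 0.00 and 0.01 over all genes. With the line as a block, which pairs the libraries of a line, all 10 genes passed in wt. The wt count was 6 without day 2.5 line 2, without day 2 line 1 or without day 2 line 3, and 10 without day 2 line 2.

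Between day 2.5 and day 3, fewer genes moved: 3 rose and 1 fell in wt, against 8.99% and 10.1% of all genes, and 4 rose and 1 fell in het, against 13.8% and 16%. Slc2a3 and Hk1 rose and Pdk1 fell in both genotypes, and 4 genes passed in neither. The count of members called was 2 in wt without day 3 line 2, without day 3 line 3 or without day 2.5 line 2, and 3 in het without day 3 line 2, without day 3 line 3 or without day 2.5 line 1.

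Over the whole interval from day 0 to day 3, 5 genes rose and 3 fell in wt, and 6 rose and 3 fell in het. Of all genes, 27% rose and 26.6% fell in wt, and 32.7% rose and 31.6% fell in het. Slc2a1, Slc2a3, Aldoa, Ldha and Pdk1 rose in both genotypes, and Hk1, Hk2 and Pfkp fell in both. In wt, the count was 5 without day 3 line 3 and 5 without day 0 line 3.

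**Figure D2:**
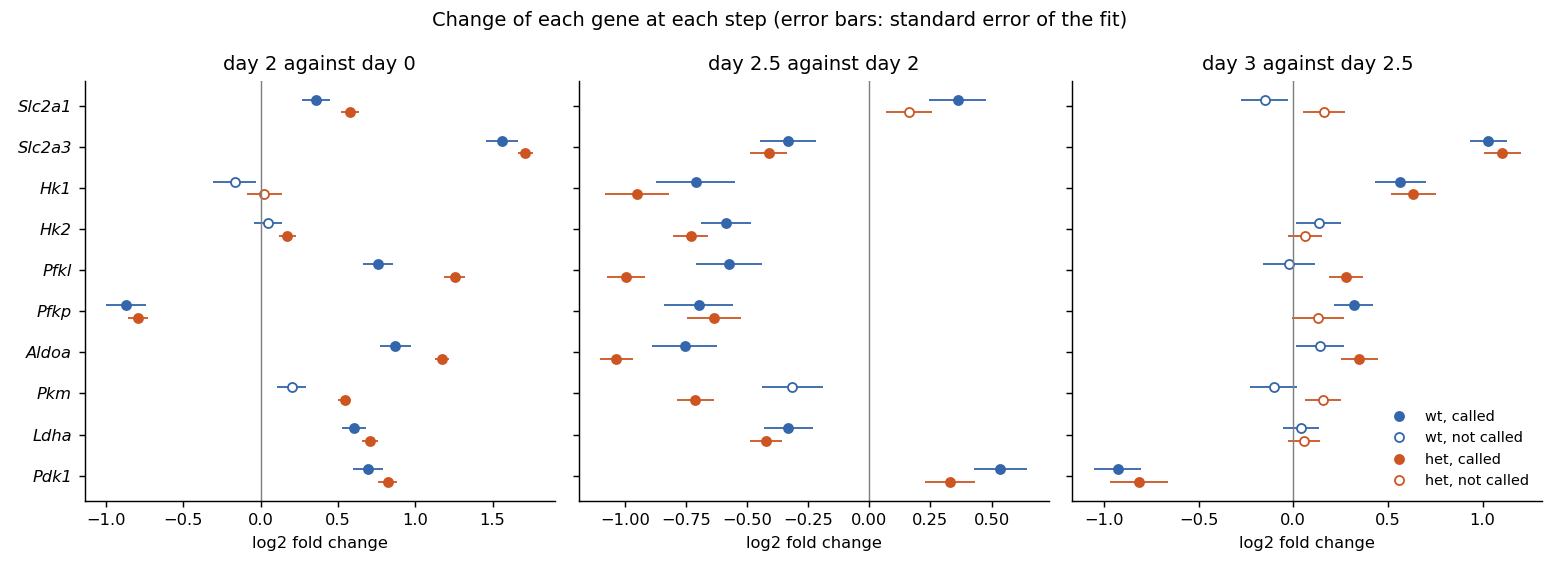
Change of each gene at the 3 steps between days (x axis, log2 fold change, with bars of 1 standard error; y axis, gene), for wt and het. Filled points passed an adjusted p of 0.05 and open points did not. Pdk1 and Slc2a3 moved in opposite directions at the last 2 steps in both genotypes, and Pfkp lay left of 0 at the first 2.

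Of the transporters, Slc2a3, the high-affinity neuronal-type transporter GLUT3, had the widest range of the 10 genes, 2.43 log2 units between its lowest and highest group means. It lies on chromosome 6 (GRCm38, 122727809-122801640, minus strand). In wt it was at 809, 892 and 905 CPM on day 0, 2642, 2166 and 2815 on day 2, 1806, 2054 and 2147 on day 2.5, and 3895, 4017 and 4416 on day 3. In het the values were 815, 754 and 809, then 2499, 2489 and 2714, then 1763, 2010 and 2033, and finally 3849, 4518 and 4438 CPM. Neighbouring days never overlapped in either genotype, and every day 3 library was above every earlier one. The rise to day 2 was 1.56 ± 0.104 in wt (adjusted p = 7.27e-08) and 1.71 ± 0.051 in het (1.53e-12), a ratio of means of 2.93 and 3.24. The fall to day 2.5 was -0.33 ± 0.113 (0.0413) and -0.41 ± 0.077 (0.000629), and the second rise was 1.03 ± 0.098 (0.000316) and 1.10 ± 0.099 (5.15e-05), a ratio of 2.05 and 2.21. From day 0 to day 3 the means differed 4.73-fold in wt and 5.38-fold in het. Of these calls only the wt fall was lost under an alternative: it did not pass without wt day 2.5 line 1, day 2.5 line 2, day 2 line 1 or day 2 line 3 (adjusted p up to 0.172), or with scaling by library totals alone (0.0509).

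Slc2a1 encodes GLUT1, the transporter of most proliferating cells, and lies on chromosome 4 (119108711-119137983, plus strand). Its wt levels were 791, 777 and 755 CPM on day 0, 926, 1067 and 967 on day 2, 1430, 1254 and 1088 on day 2.5, and 1143, 998 and 1275 on day 3. Its het levels were 745, 642 and 704, then 1085, 1002 and 1002, then 1036, 1078 and 1355, and then 1205, 1411 and 1366 CPM. No day 2 library overlapped day 0. In wt the day 2.5 libraries were above those of day 2, and in het they overlapped both neighbouring days. It rose by 0.36 ± 0.089 to day 2 in wt (0.00461) and by 0.58 ± 0.058 in het (5.55e-07). The step to day 2.5 was 0.36 ± 0.117 in wt (0.0333), a call lost without day 2.5 line 1, day 2.5 line 2, day 2 line 1 or day 2 line 3 (adjusted p up to 0.131). In het it was 0.16 ± 0.094 (0.18), and 0.24 with library totals alone (0.045). The step to day 3 did not pass in either genotype, except in het without day 2.5 line 3 (0.32, 0.0258). On day 3 it was above day 0 by 0.57 ± 0.095 in wt (0.000279) and 0.95 ± 0.075 in het (2.2e-07).

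To set genes against each other, CPM were divided by the length of the union of each gene's exons, in kilobases. On this scale Slc2a3 made up 35.2% ± 1.85 of the summed level of the pair Slc2a1 and Slc2a3 in wt and 35.5% ± 0.835 in het on day 0. Its share was 55.3% ± 5.02 and 54.7% ± 2.01 on day 2, 43.7% ± 5.48 and 44.9% ± 2.70 on day 2.5, and 63.7% ± 2.10 and 60.9% ± 0.217 on day 3. By the group means, the larger part of the pair was thus Slc2a1 on days 0 and 2.5 and Slc2a3 on days 2 and 3 in both genotypes, although in wt on day 2 the levels of the pair overlapped and Slc2a3 was at 49.5% in line 2. Of the 6 other glucose transporters examined, 4 or 5 passed the filter on low counts, and their summed level was at most 22.3 CPM in any library. Slc2a8 rose to day 2 in both genotypes (wt 0.95 ± 0.277, adjusted p = 0.0125) from 5.33 ± 0.995 to 10.2 ± 1.81 CPM, in wt not without day 2 line 1 (0.0575).

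Per length, the hexokinase message was mostly Hk2. Hk2, the insulin-responsive and inducible hexokinase on chromosome 6 (82725025-82774454, minus strand), was at 321, 346 and 348 CPM on day 0 in wt, 331, 348 and 362 on day 2, 219, 224 and 245 on day 2.5, and 212, 274 and 273 on day 3. The het lines gave 328, 311 and 308, then 355, 354 and 347, then 216, 207 and 214, and then 204, 252 and 227 CPM. Days 0 and 2 were high and days 2.5 and 3 low, with no overlap between these pairs of days. The fall to day 2.5 was -0.59 ± 0.103 in wt (0.00116) and -0.73 ± 0.073 in het (3.09e-06), and day 3 stayed below day 0 by -0.41 ± 0.109 (0.00687) and -0.46 ± 0.078 (0.000196). The small rise to day 2 in het, 0.17 ± 0.054 (0.0133), did not pass without day 0 line 2 or day 0 line 3 (adjusted p up to 0.0641), or in 1 fit of all 24 libraries (0.136).

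Hk1, the constitutive hexokinase of most tissues (chromosome 10, 62268855-62379908, minus strand), was the lowest of the 10 genes per length in every group. In wt it was at 49.5, 54.9 and 56.6 CPM on day 0, 42.9, 44.1 and 55.5 on day 2, 32.3, 25.6 and 28.1 on day 2.5, and 41.6, 42.8 and 44.1 on day 3. In het the levels were 51.0, 57.4 and 46.9, then 46.4, 51.3 and 58.6, then 23.6, 30.7 and 26.9, and then 38.7, 44.7 and 45.7 CPM. Day 2.5 was the low point, with every library under every other. The fall was -0.71 ± 0.163 in wt (0.00576) and -0.95 ± 0.131 in het (5.12e-05), and the rise to day 3 was 0.57 ± 0.135 (0.0165) and 0.63 ± 0.118 (0.00245). In wt that rise did not pass without day 3 line 2, day 3 line 3 or day 2.5 line 2 (adjusted p up to 0.0721). The difference of day 3 from day 0, -0.31 ± 0.116 in wt (0.0359) and -0.25 ± 0.104 in het (0.0485), was lost with library totals alone (0.119 and 0.267), in wt with no filter (0.085) and in het in 1 fit of all 24 libraries (0.0991). In wt it was also lost without any library but day 0 line 1 (up to 0.143), and in het without day 3 line 1, day 3 line 3, day 0 line 1 or day 0 line 2 (up to 0.192). Per length, the share of Hk1 in the pair Hk1 and Hk2 was lowest in wt on day 2.5 (8.06% ± 1.12) and highest in het on day 3 (11.7% ± 0.661). With the longest transcript in place of all exons these means were 13.9% and 19.6%. Exons of Hk1 overlap 157 bases of Hk1os on the other strand, where reads of the genes cannot be told apart without strand.

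The phosphofructokinases, which catalyse the committing step, changed in opposite directions between days 0 and 2. Pfkl, the liver-type subunit (chromosome 10, 77986947-78010083, minus strand), was at 504, 441 and 475 CPM on day 0 in wt, 843, 737 and 807 on day 2, 654, 472 and 463 on day 2.5, and 554, 470 and 549 on day 3. The het libraries stood at 413, 363 and 351, then 924, 904 and 828, then 429, 434 and 474, and then 497, 611 and 554 CPM. Day 2 stood above all other days with no overlap in either genotype. Pfkl rose by 0.76 ± 0.096 in wt (2.5e-05) and 1.25 ± 0.065 in het (4.08e-10), then changed by -0.57 ± 0.136 (0.00703) and -0.995 ± 0.077 (2.99e-07). Day 3 was above day 0 in het by 0.58 ± 0.085 (5.79e-05), while in wt the difference was 0.16 ± 0.095 (0.186), or 0.25 with library totals alone (0.0464). The last step in het, 0.28 ± 0.092 (0.04), did not pass without day 3 line 2, day 3 line 3, day 2.5 line 1 or day 2.5 line 2 (adjusted p up to 0.15), or in 1 fit of all 24 libraries (0.0581).

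Pfkp, the platelet-type subunit (chromosome 13, 6579768-6648777, minus strand), was at 421, 427 and 424 CPM on day 0 in wt, 283, 220 and 188 on day 2, 142, 140 and 141 on day 2.5, and 188, 183 and 159 on day 3. Het levels were 470, 402 and 433, then 244, 262 and 239, then 169, 183 and 129, and then 159, 213 and 168 CPM. It was the single gene of the 10 that fell at both of the first 2 steps in both genotypes. The falls were -0.87 ± 0.129 (9.63e-05) and -0.70 ± 0.142 (0.00284) in wt, and -0.79 ± 0.066 (7.38e-08) and -0.64 ± 0.112 (0.000392) in het, and day 3 was below day 0 by -1.25 ± 0.093 (3.11e-07) and -1.26 ± 0.102 (2.57e-07). A rise to day 3 in wt of 0.32 ± 0.101 (0.0488) was lost without any 1 of its 6 libraries (adjusted p up to 0.153), with no filter on low counts (0.0738) and in 1 fit of all 24 libraries (0.0709). Its exons overlap 748 bases of Pitrm1 on the other strand. Whether counting used strand is not given, so reads of these genes cannot be told apart there.

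Per length, Pfkp was 28.5% ± 0.958 of the summed level of Pfkl, Pfkm and Pfkp in wt and 33.1% ± 1.46 in het on day 0. On every later day its share was lower, between 10.6% ± 0.350 (het day 2) and 13.6% ± 2.49 (het day 2.5). Pfkl took 63.8% ± 2.64 in wt and 57.3% ± 0.884 in het on day 0 and 74.0% to 78.1% afterwards. The muscle-type Pfkm held the rest, 7.62% to 14.0%. In both genotypes the share of Pfkp on day 0 was above that of every later library.

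**Figure D3:**
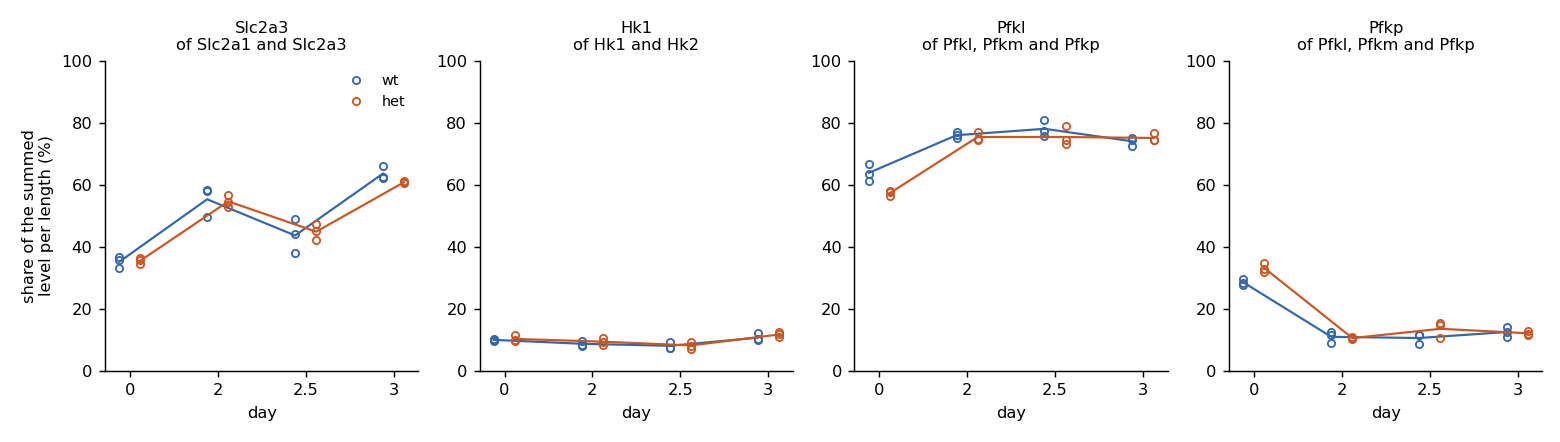
Share of each gene in the summed level of its paralogues, per kilobase of exons (y axis, percent from 0 to 100; x axis, day), with points for the 3 lines of wt and het and lines through the means. The share of Slc2a3 alternated between days in both genotypes, and the share of Pfkp fell from 28.5% and 33.1% to between 10.6% and 13.6%.

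Aldoa, the main aldolase of muscle and of embryonic cells (chromosome 7, 126795234-126800751, minus strand), was highest on day 2 as Pfkl was. It was at 1505, 1480 and 1539 CPM on day 0 in wt, 3025, 2338 and 2854 on day 2, 1909, 1491 and 1428 on day 2.5, and 1970, 1585 and 1805 on day 3. In the het lines they were 1462, 1351 and 1342, then 3111, 3116 and 3042, then 1466, 1557 and 1514, and then 1786, 2233 and 1907 CPM. Every day 2 library exceeded every library of another day. The rise was 0.87 ± 0.099 in wt (9.69e-06) and 1.17 ± 0.044 in het (1.15e-11), and the fall was -0.76 ± 0.132 (0.00109) and -1.04 ± 0.067 (5.67e-08). The step to day 3 in het, 0.35 ± 0.097 (0.0191), was lost without day 3 line 2, day 3 line 3 or day 2.5 line 1 (adjusted p up to 0.0723). The difference of day 3 from day 0 was 0.53 ± 0.079 in het (6.54e-05) and 0.25 ± 0.088 in wt (0.0275), the latter lost without day 3 line 1, day 3 line 3, day 0 line 2 or day 0 line 3 (up to 0.164). The second row of Aldoa, a separate short gene record just upstream, was at 0.510 to 2.64 CPM and passed in none of the comparisons (smallest adjusted p = 0.122).

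Pkm, whose product makes pyruvate and which gives both the M1 and the M2 enzyme by splicing (chromosome 9, 59656368-59679375, plus strand), moved less. In wt it was at 3984, 3606 and 3645 CPM on day 0, 4564, 3743 and 4534 on day 2, 4029, 3263 and 2945 on day 2.5, and 3386, 2818 and 3386 on day 3. The het values were 3566, 3267 and 3323, then 5047, 4918 and 4666, then 2982, 2739 and 3239, and then 3273, 3654 and 3313 CPM. The het lines had a clear day 2 peak, with no overlap with its neighbours, while the wt libraries of days 0, 2 and 2.5 overlapped. In het, Pkm rose by 0.54 ± 0.043 (4.25e-08) and then changed by -0.71 ± 0.075 (5.31e-06). In wt the steps were 0.20 ± 0.094 (0.0975) and -0.31 ± 0.125 (0.0749). The first passed with library totals alone (0.24, adjusted p = 0.034) or without day 2 line 2 (0.28, 0.0129), and the second with the line as a block (-0.32, 0.0371), with no filter on low counts (-0.33, 0.01), in 1 fit of all 24 libraries (0.0187), without day 2.5 line 1 (-0.45, 0.00594) or without day 2 line 2 (-0.42, 0.0299). Day 3 differed from day 0 by -0.22 ± 0.089 in wt (0.0546), which passed with the line as a block (0.0271), without day 3 line 1 (0.0411), by DESeq2's Wald test (0.0481) and with a filter at a mean of 50 counts (0.0467). In het that difference was 0.03 (0.713), or 0.14 with library totals alone (0.0455). Counts per gene do not separate the M1 and M2 forms, and 80.4% of the 75-base stretches of Pkm occur in no other gene, with 3 other genes sharing the rest, among them Gm49759, which overlaps 767 bases of its exons on the same strand.

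Ldha, which turns pyruvate into lactate (chromosome 7, 46841475-46855627, plus strand), was at 2374, 2457 and 2310 CPM on day 0 in wt, 3611, 3615 and 3551 on day 2, 3106, 2847 and 2542 on day 2.5, and 2937, 2816 and 3035 on day 3. Levels in het were 2348, 2039 and 2344, then 3744, 3604 and 3520, then 2733, 2657 and 2748, and then 2764, 3018 and 2899 CPM. Day 2 was above all other days without overlap, and days 2.5 and 3 lay between days 0 and 2. The rise was 0.60 ± 0.077 in wt (2.68e-05) and 0.71 ± 0.052 in het (1.77e-08), the fall -0.33 ± 0.099 (0.0232) and -0.42 ± 0.066 (0.000149). The wt fall did not pass without day 2.5 line 2, day 2.5 line 3, day 2 line 1 or day 2 line 3 (adjusted p up to 0.0953). Day 3 was above day 0 by 0.31 ± 0.074 (0.00334) and 0.38 ± 0.066 (0.000207).

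Pdk1 was highest on day 2.5. The gene of this kinase (chromosome 2, 71873224-71903858, plus strand) was at 212, 250 and 233 CPM on day 0 in wt, 394, 356 and 367 on day 2, 581, 543 and 484 on day 2.5, and 319, 234 and 298 on day 3. For het they were 251, 228 and 243, then 427, 440 and 394, then 436, 552 and 601, and then 245, 383 and 296 CPM. In wt, every day 2.5 library was above every other, and in het the day 2 and day 2.5 libraries overlapped. Pdk1 rose by 0.69 ± 0.098 (6.23e-05) and 0.82 ± 0.061 (2.32e-08) to day 2, rose again by 0.54 ± 0.109 (0.00283) and 0.33 ± 0.103 (0.0181) to day 2.5, and fell to day 3, with changes of -0.93 ± 0.126 (0.00162) and -0.82 ± 0.154 (0.00261). Pdk1 and Slc2a3 were the 2 genes of the 10 that passed at all 3 steps in both genotypes. The het rise to day 2.5 was lost without day 2.5 line 2, day 2.5 line 3, day 2 line 1 or day 2 line 3 (adjusted p up to 0.069). The remaining difference of day 3 from day 0, 0.30 ± 0.115 in wt (0.0415) and 0.37 ± 0.124 in het (0.0178), was lost in wt without day 3 line 1, day 3 line 3, day 0 line 1 or day 0 line 3 (up to 0.205) or in 1 fit of all 24 libraries (0.0599) and in het without day 3 line 2, day 0 line 2 or day 0 line 3 (up to 0.0692).

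Ranked per length, Pkm (749 ± 41.6 CPM per kilobase), Ldha (719 ± 22.3) and Aldoa (518 ± 10.1) led in wt on day 0, followed by Slc2a1 (221 ± 5.13), Slc2a3 (120 ± 7.17), Pfkl, Hk2, Pfkp, Pdk1 and Hk1. The libraries of Pkm and Ldha overlapped, as did those of Pfkp and Pdk1, and the other neighbours did not. On day 3 the order in wt was Ldha (885 ± 33.1), Pkm (639 ± 65.6), Aldoa (614 ± 66.4), Slc2a3 (567 ± 37.6), Slc2a1 (325 ± 39.5), Pfkl, Hk2, Pdk1, Pfkp and Hk1. Pkm and Aldoa overlapped there, as did Aldoa and Slc2a3, and Hk2 and Pdk1. Slc2a3 had thus moved from below Slc2a1 to a level that overlapped Aldoa. With the longest transcript as the length, Pkm and Ldha did not overlap on day 0 and Slc2a3 and Pfkl did, and on day 3 Aldoa and Slc2a3 did not overlap and Pdk1 stood above Hk2.

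For the 3 genes with the widest range over the groups, the genes whose pattern was most alike were sought among 12332 genes, by the root mean square difference (RMS) of their centred log2 levels over the 8 groups. Nearest to Slc2a3 were Hebp1 (RMS 0.111), Dynlt3 (0.137) and Uap1l1 (0.145), all at lower levels: Dynlt3 was at 9.43 CPM in wt on day 0, 32.8 on day 2, 21.3 on day 2.5 and 51.1 on day 3. Nearest to Pfkp were Enah (0.055), Hic2 (0.0792) and Ifitm2 (0.0848), and nearest to Pfkl were Ftl1 (0.0638), Agfg2 (0.0966) and Ftl1-ps1 (0.108), the last a pseudogene that can share reads with Ftl1.

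Other genes of the pathway were examined as lists. Of 16 other glycolytic enzymes, 14 were tested between days 0 and 2 in wt, and 8 rose and 1 fell. In het 13 were tested, and 8 rose and 2 fell. The neuronal enolase Eno2 went from 4.12 ± 1.19 to 78.4 ± 27.7 CPM in wt (4.25 ± 0.288, adjusted p = 8.15e-08) and from 2.53 ± 0.707 to 89.6 ± 5.05 CPM in het (5.15 ± 0.160, 2.25e-12), and the phosphoglycerate kinase Pgk1 rose by 1.26 ± 0.101 and 1.41 ± 0.051. Eno3, the muscle enolase, fell (-1.10 ± 0.162 and -0.55 ± 0.128). Between days 2 and 2.5, 6 of 13 fell in wt and 9 of 13 in het, and none rose. Eno2 fell (-2.62 ± 0.250 and -2.85 ± 0.184), as did the brain aldolase Aldoc (-0.99 ± 0.169 and -1.32 ± 0.101). Between days 2.5 and 3, 2 of 13 rose in wt and 5 of 12 in het, and none fell, with Eno2 at 2.01 ± 0.233 and 1.89 ± 0.254 and Aldoc at 0.71 ± 0.116 and 0.87 ± 0.104. Of 75-base stretches, 32.5% in Pgk1, 34.6% in Eno1, 59.4% in Pgam1 and 77.2% in Gapdh occur in no other gene, and Gapdh shares stretches with 114 other genes, so the counts of these 4 are uncertain. The median of the list was 0.44 in wt and 1.26 in het on the first step and -0.50 and -0.68 on the next.

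Of 5 genes that set the level of fructose 2,6-bisphosphate, the activator of phosphofructokinase, 1 rose and 1 fell to day 2 in each genotype. Tigar, which removes the activator, fell (-1.37 ± 0.142 in wt and -1.61 ± 0.115 in het, there from 84.7 ± 7.26 to 27.4 ± 3.79 CPM), and Pfkfb1 rose by 0.61 ± 0.197 and 0.56 ± 0.170. In wt the rise of Pfkfb1 was lost without day 2 line 1, day 2 line 3 or day 0 line 3 (adjusted p up to 0.0859). Tigar rose again to day 2.5 (0.63 ± 0.158 and 0.84 ± 0.133), in wt not without day 2 line 3 (0.0543), and between days 2.5 and 3 it fell (-0.67 ± 0.120 and -0.58 ± 0.115) while Pfkfb3, which makes the activator, rose (0.74 ± 0.115 and 0.58 ± 0.111).

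Of 14 genes of lactate and pyruvate handling, 5 rose and 4 fell to day 2 in wt and 7 rose and 4 fell in het. Slc16a1, the lactate transporter MCT1, rose from 238 ± 18.7 to 464 ± 65.5 CPM in wt (0.97 ± 0.111) and by 0.82 ± 0.063 in het. The pyruvate dehydrogenase component Pdhx fell (-0.72 ± 0.140 and -0.91 ± 0.105). To day 2.5, 2 rose and 4 fell in wt and 1 rose and 6 fell in het. To day 3, 3 of 13 rose and 2 fell in wt and 5 of 14 rose and 2 fell in het. Ldhb, the heart-type lactate dehydrogenase, rose by 0.78 ± 0.134 and 1.10 ± 0.135 while Ldha did not pass (0.04, adjusted p = 0.802, and 0.06, 0.646). Pdhb, a subunit of pyruvate dehydrogenase, fell (-0.998 ± 0.121 and -0.90 ± 0.086).

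The citrate cycle, which lies downstream, had a median change of 0.01 in wt and 0.04 in het on the first step, with 4 of 16 genes higher and 2 lower in wt and 7 higher and 3 lower in het. Dlst, a subunit of the oxoglutarate dehydrogenase, rose by 0.53 ± 0.098 and 0.61 ± 0.0655, and the malate dehydrogenase Mdh2 fell (-0.72 ± 0.101 and -0.51 ± 0.0615). In the pentose phosphate pathway, which branches off after hexokinase, 0 of 7 rose and 2 fell in wt to day 2, and 2 rose and 2 fell in het. Pgd and G6pdx, the dehydrogenases of its oxidative arm, were the 2 that fell in both (Pgd -0.81 ± 0.107 and -0.92 ± 0.0687). Of 7 gluconeogenesis genes 5 were tested, and Pck2 rose to day 2 (0.66 ± 0.124 and 1.02 ± 0.069).

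**Figure D4:**
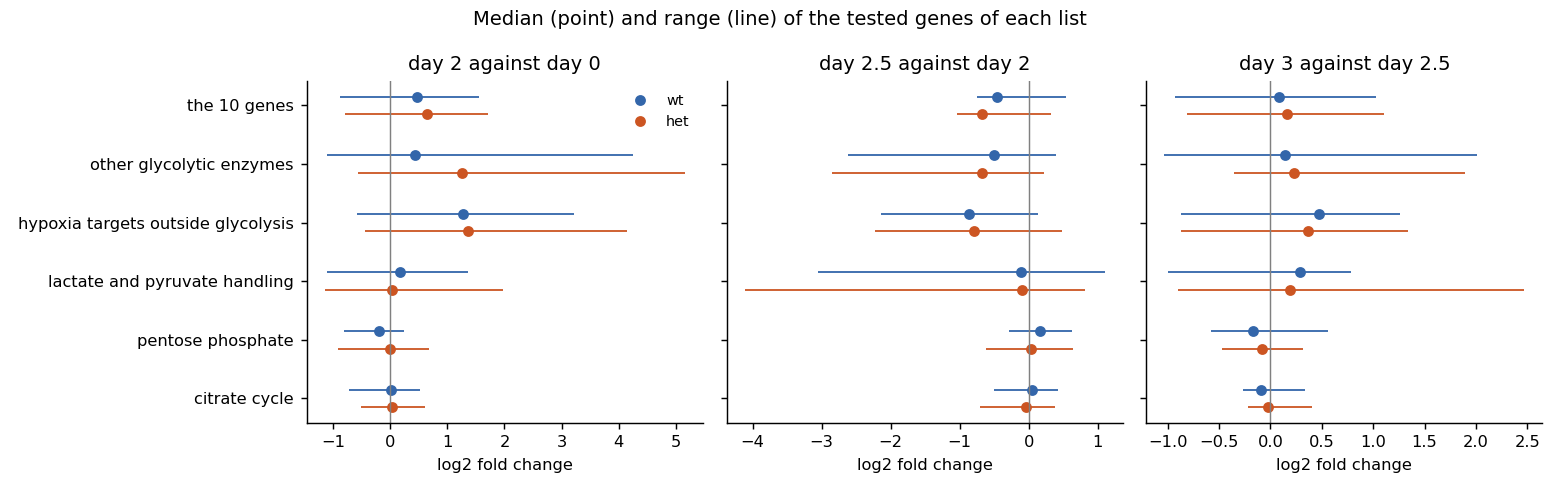
Median (point) and range (line) of the log2 fold change (x axis) over the tested genes of each list (y axis) at the 3 steps between days, for wt and het. The medians of the 10 genes, the other glycolytic enzymes and the hypoxia targets lay right of 0 on the first step, left of it on the second and right of it on the third, and those of the citrate cycle lay near 0. At the third step in wt the 10 genes lay on both sides of 0, among them Pkm at -0.10, Pfkl at -0.02, Ldha at 0.04 and Hk1 at 0.57.

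Since several of the 10 genes are known HIF1 targets, 15 hypoxia targets that have no part in glycolysis were examined beside them. To day 2, 12 of 15 rose and 1 fell in wt and 13 rose and 1 fell in het, with a median of 1.28 and 1.37. The mitophagy gene Bnip3 went from 152 ± 21.2 to 521 ± 22.9 CPM in wt (1.79 ± 0.111, adjusted p = 4.08e-08), and the peptide gene Adm rose by 3.22 ± 0.203. In het, Ero1l, an oxidase of protein folding, rose by 2.31 ± 0.068 and the collagen hydroxylase P4ha1 by 2.33 ± 0.082. The histone demethylase gene Kdm3a was the 1 that fell in both (-0.58 ± 0.109 and -0.45 ± 0.060). To day 2.5, 0 of 14 rose and 10 fell in wt and 1 rose and 9 fell in het, and to day 3, 6 of 14 rose and 1 fell in wt and 8 rose and 1 fell in het. The summed level of this list was 1134 to 1306 CPM in wt and 1023 to 1166 in het on day 0, 2972 to 3314 and 2858 to 3065 on day 2, 1781 to 2151 and 1821 to 1972 on day 2.5, and 2265 to 2878 and 2210 to 2783 on day 3. It was thus high on days 2 and 3 and lower on day 2.5. The mean sum of the 10 genes had the same order, but its rise to day 3 rested largely on Slc2a3. The sum went from 1.26% to 1.44% of scaled counts in wt and from 1.17% to 1.52% in het. Slc2a3 alone went from a mean of 2002 to 4109 CPM in wt and from 1936 to 4268 in het.

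Of the 10 regulators of this response and Myc genes, 4 rose and 5 fell to day 2 in wt and 3 rose and 5 fell in het. Egln1 and Egln3, which mark HIF for destruction when oxygen is present, rose (Egln3 from 107 ± 11.4 to 303 ± 31.7 CPM in wt, 1.51 ± 0.115). Myc fell (-2.19 ± 0.160 in wt and -1.75 ± 0.109 in het), in wt from 88.7 ± 5.11 to 19.3 ± 4.30 CPM. By day 3 Myc was at 12.5 ± 2.67 CPM in wt and 12.5 ± 1.85 in het. The part of HIF1 and MYC in the changes of the 10 genes was not tested.

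Other cell types moved over the same days. The 11 endoderm markers, among them Col4a1 and Lamb1 of the basement membrane that parietal endoderm makes, summed to 1245, 1325 and 2142 CPM in wt (lowest, median, highest) and 671, 940 and 974 in het on day 0. On day 2 they summed to 4486, 5919 and 8708 in wt and 2647, 3342 and 3599 in het, on day 2.5 to 3446, 4918 and 7792 and 3117, 3589 and 4719, and on day 3 to 3481, 6399 and 6653 and 2559, 4170 and 4181. Of the 9 tested, 7 rose to day 2 in each genotype and none fell. Afp was at 0 counts in every library of wt day 0, het day 2 and het day 3, and Ttr in those of wt and het day 0, so these markers of visceral endoderm were absent from those groups. The median endoderm sum was lower in het on all 4 days, with overlap of the genotypes on days 2.5 and 3. The median sum of the 10 genes was lower in het on days 0 and 2.5 and higher on days 2 and 3. The part of such cells in the changes across days was not tested.

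Between the genotypes, none of the 10 genes passed on any day. Over all genes, 0% passed on day 0, 0.551% on day 2 (85 of 15414), 0% on day 2.5 and 0.00638% on day 3 (1 of 15686), whereas at an unadjusted p under 0.05 there were 1649, 1576, 822 and 1432 genes, and DESeq2's Wald test called 82, 233, 3 and 116. Of the 10 genes, 5 had an unadjusted p under 0.05 on day 0 (Slc2a1, Slc2a3, Pfkl, Aldoa and Pkm), 1 on day 2 (Pkm) and 0 on days 2.5 and 3. The differences of het from wt ranged from -0.36 to 0.03 on day 0, from 0.00 to 0.18 on day 2, from -0.25 to 0.19 on day 2.5 and from -0.16 to 0.21 on day 3, on the log2 scale. The smallest adjusted p on these days were 0.334, 0.446, 0.907 and 0.571. With 0 genes called on days 0 and 2.5, the deleted gene Smchd1 did not pass on those days either. Its means in wt and het were 143 and 95.2 CPM on day 0 and 136 and 90.0 CPM on day 2.5, without overlap. A loss of that size went uncalled, so the absence of calls among the 10 genes does not show equal levels.

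The largest difference was that of Pfkl on day 0, where all 3 het lines (413, 363 and 351 CPM) were below all 3 wt lines (504, 441 and 475). The difference was -0.36 ± 0.082 (adjusted p = 0.334), a ratio of means of 0.793. It passed with no filter on low counts (0.000637), by DESeq2's Wald test (0.0123) and without wt day 0 line 2 (-0.42, 0.0479), the single library whose removal gave a call. The first of these settings called 369 of all genes and the second 82, so neither call is particular to Pfkl. It did not pass with DESeq2 size factors, library totals alone, a mean of at least 50 counts, 1 fit of all 24 libraries or the line as a block. With another library left out its adjusted p was up to 0.905. Aldoa (ratio 0.918), Slc2a1 (0.900) and Pkm (0.904) were also lower in all 3 het lines on day 0, by -0.15 ± 0.055, -0.18 ± 0.067 and -0.17 ± 0.060, and 8 of the 10 genes were lower in het on average. The libraries of the genotypes did not overlap in 4 of the 10 genes, against 17% of all genes tested, and 46.2% of all genes were lower in het on average.

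On day 2 the direction was the other one, with 0 of the 10 genes lower in het on average (47.8% of all genes). Aldoa (ratio 1.13, 0.16 ± 0.085) and Pkm (1.14, 0.18 ± 0.077) were higher in all 3 het lines than in all 3 wt lines, with adjusted p of 0.556 and 0.446, and 15.8% of all genes did not overlap. On day 2.5, 9 of 10 were lower in het (51.2% of all genes) and Hk2 alone did not overlap (ratio 0.927, -0.11 ± 0.097, adjusted p = 0.922), against 11.6% of all genes. On day 3, 2 of 10 were lower (47.8% of all genes) and all 10 overlapped, while 14% of all genes did not. The 10 genes share the scaling of each library, so a common direction on a day is not 10 separate observations.

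**Figure D5:**
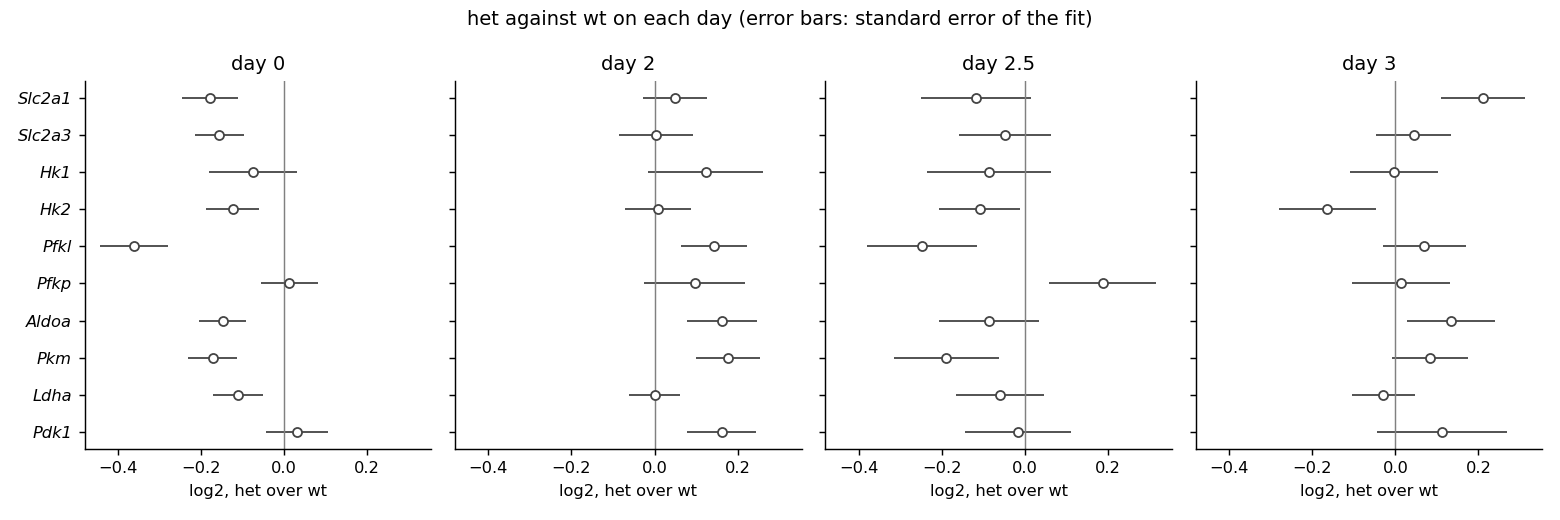
Difference of het from wt in each of the 10 genes on each day (x axis, log2 fold change with bars of 1 standard error; y axis, gene). All points are open since none passed an adjusted p of 0.05. The points of day 0 lie mostly left of 0, with Pfkl at -0.36, and those of day 2 lie at or right of 0.

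Whether a step itself differed between genotypes was tested as an interaction, and none of the 10 genes passed at any step. Over all genes 0% passed at the step to day 2, 0% at the step to day 2.5 and 0% at the step to day 3, with 1034, 850 and 635 at an unadjusted p under 0.05, and DESeq2's Wald test called 10 at the step to day 2. At the step to day 2 the difference, het less wt, was above 0 for all 10 genes (0.09 to 0.51), and 4 had an unadjusted p under 0.05 (Slc2a1, Pfkl, Aldoa and Pkm). The median of this difference over all genes was -0.000255, and the share of all genes above 0 was not counted. Pfkl had the largest, 0.51 ± 0.116 (unadjusted p = 0.000306, adjusted p = 0.456), and it passed by DESeq2's Wald test (0.0495) and with no filter on low counts (0.0151). The latter setting called 58 of all genes at this step. Pfkl did not pass under the other alternatives or with any library left out. At the step to day 2.5 the differences were -0.41 to 0.07 (Pkm and Pfkl with an unadjusted p under 0.05) and at the last step -0.17 to 0.33 (none). Libraries of days 0 and 2 enter both the genotype differences on those days and the interaction at the step to day 2. These are therefore not separate evidence on Pfkl or on the common direction of the 10 genes.

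Among the other lists, few genes differed between the genotypes. On day 2, Hkdc1, a hexokinase-domain gene, was at 17.3 ± 2.67 CPM in het and 43.0 ± 20.0 in wt (-1.32 ± 0.245, adjusted p = 0.0194), and the hypoxia target P4ha1 at 345 ± 17.9 and 535 ± 121 (-0.64 ± 0.122, 0.0226). On the same day 7 of the 9 endoderm markers tested were lower in het and none was higher, among them Sox7 (-1.52 ± 0.221, 0.00971) and Col4a1 (-1.03 ± 0.164, 0.0118). All 7 of these calls, and those of Hkdc1 and P4ha1, were lost without het day 2 line 1 or het day 2 line 3, and all but that of Sox7 without het day 2 line 2. Without wt day 2 line 3 the calls of Hkdc1 and P4ha1 were lost as well, with adjusted p over these fits of up to 0.182 and 0.195, and of the 7 markers Col4a1 and Col4a2 kept theirs. Sox17 was also lost without wt day 2 line 2 (0.058). No marker passed on the other days, with a smallest adjusted p of 0.334, 0.907 and 0.316 on days 0, 2.5 and 3. The part of endoderm cells in the differences of Hkdc1, P4ha1 or the 10 genes between genotypes was not tested.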

How the data were processed

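RNA was poly(A)-selected and sequenced as 75-base single-end reads. The authors trimmed reads with Trim Galore (0.4.4), aligned them with HISAT2 (2.0.5) to GRCm38.p6 and counted them in SeqMonk. The deposited values are raw read counts per gene, and 8 columns of group means were not used. Kits were stranded or non-stranded, which is not given per library. Groups followed the labels, and no 2 libraries held identical values. Counts were tested with edgeR (4.0.16) in R (4.3.3) by the quasi-likelihood test, with TMM scaling, filterByExpr and Benjamini-Hochberg adjustment over all genes, within each step, day or interaction. The code was tested on simulated data. Alternatives were DESeq2 (1.42.0) size factors and Wald test, library totals, no filter, a mean of at least 50 counts, 1 fit of all 24 libraries, the line as a block and each library left out.

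The 10 genes and all lists were chosen with earlier results of these data known. From each list, examples are among the 2 genes with the smallest adjusted p in each direction of a comparison. The most alike genes are the 3 nearest outside all lists, with a mean of at least 50 counts, for each of the 3 genes with the widest range. Libraries of a line on 2 days pair as the same cell line, and the correlation of their deviations from the group means ran from -0.101 to 0.472 over 12457 genes. Gene models were GENCODE vM21, which held 35545 of 35591 identifiers. A count of 3, taken as the floor, was 0.144 to 0.422 CPM. Lines are separate derivations, so p-values between genotypes measure the spread between lines. Each line was sampled once on each day, so that spread includes variation of culture and library. In the steps between days the same 3 lines stand on both sides, unpaired in the main fit.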

Additional observations from a re-analysis of the deposited data

How the results depend on the processing

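The 10 genes were counted and tested under 7 alternatives beside the leaving out of each library. Of the called step changes of single genes, 410 of the refits kept the call and 10 lost it, and of the uncalled ones 130 did not pass and 10 did; none of these refits turned a direction. With 1 library left out, called changes kept the call in 306 fits and lost it in 54, and all kept their direction. Leaving out 1 library gave 7 to 8 genes called in wt and 8 to 9 in het at the step to day 2 (7 and 9 with all libraries), 6 to 10 and 8 to 9 at the step to day 2.5 (9 and 9), 2 to 3 and 3 to 6 at the step to day 3 (4 and 5), and 5 to 7 and 7 to 8 between days 0 and 3 (8 and 9). Uncalled changes crossed 0 in these fits, from -0.072 to 0.10 for Hk1 (het, to day 2), from -0.036 to 0.11 for Ldha, -0.20 to 0.034 for Pkm and -0.12 to 0.16 for Pfkl (wt, to day 3), from -0.020 to 0.14 for Hk2 and -0.012 to 0.23 for Pfkp (het, to day 3), and from -0.033 to 0.063 for Pkm (het, days 0 to 3). The cause was not tested.

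Between genotypes on day 0, 0 genes of the 10 passed, or 1 (Pfkl) with no filter on low counts, 1 by DESeq2's Wald test and 0 to 1 with a library left out, and for the interaction at the step to day 2, 0 passed, or 1 (Pfkl) under the same 2 alternatives. With the line as a replicate block, which pairs libraries of a line, 7 and 9 genes passed to day 2, 10 and 9 to day 2.5, 4 and 5 to day 3 and 9 and 9 between days 0 and 3 in wt and het. The block added Pkm in wt at the second step and between days 0 and 3, changed no other call of a step, and gave 0 genes in every comparison of genotypes, where lines of a number are different lines.

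Over all genes, the step to day 3 called 2923 in wt, 4687 with the block, and 1281, 1352 and 1574 without wt day 3 line 3, day 3 line 2 and day 2.5 line 2. In het it called 4710, and 3014 without day 3 line 3. Calls between genotypes on days 0, 2, 2.5 and 3 were 0, 85, 0 and 1, and 369, 384, 87 and 274 with no filter, 82, 233, 3 and 116 by DESeq2's Wald test, and 1, 23, 1 and 15 in 1 fit of all 24 libraries. The block gave 25 on day 0 and 100 on day 3, and a mean of at least 50 counts 131 on day 2. With 1 library left out they were 0 to 68 on day 0, 0 to 211 on day 2 and 0 to 93 on day 3. On day 2, 9.41% of calls were higher in het, 21.6% with no filter and 21.9% by DESeq2's Wald test; on day 3 these were 0%, 47.1% and 62.1%, with 86.7% in 1 fit and 25.0% with the block. Interactions went from 0 to 58, 33 and 23 with no filter at the 3 steps, and to 10 by DESeq2's Wald test and 2 with the block at the first. Library totals alone moved the median of all genes between days 0 and 3 in het from 0.02 to 0.14. With 3 lines a group, differences between genotypes under the spread of lines were not detectable.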
